A study of Mus musculus with 21 samples.

Results

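A group of 9 transcription regulators of meiosis and spermiogenesis was followed through male germ cell development in the mouse: Crem, Fhl5, Rfx2, Rfx3, Sox30, Tbpl1, Taf7l, Mybl1 and Tcfl5. They were chosen by name, with earlier results of these data known, and all 9 were found among the 24456 gene symbols in the read count tables. RNA was sequenced after ribosomal RNA depletion from cell fractions of the testis in 21 libraries. Pachytene spermatocytes (meiotic cells), round spermatids (haploid cells after meiosis) and condensing spermatids (whose chromatin is being compacted) each gave 3 wild-type (WT) and 3 H2al2 KO libraries, and spermatozoa gave 2 WT libraries and 1 KO library. The H2al2 KO mice lack H2A.L.2, a histone variant of late spermatids, in the whole animal, and the labels give neither the age of the mice nor whether replicate libraries came from different animals, so the p-values below measure the spread between libraries.

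Spermatogenesis runs through a relay of transcriptional programmes. MYBL1 (A-MYB) and the basic helix-loop-helix factor TCFL5 are known as activators in pachytene spermatocytes, where MYBL1 drives piRNA precursors and many meiotic genes. After meiosis the cAMP-responsive factor CREM, with its LIM-domain coactivator FHL5 (ACT), switches on genes of the sperm head and tail. The RFX factors bind X-box motifs of cilium and flagellum genes, and SOX30 is needed for round spermatid development. TBPL1 (TRF2) and TAF7L are relatives of the general factors TBP and TAF7 that act in germ cells.

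Libraries held 2772995 to 8201682 counts on genes, and the spermatozoa libraries were the shallowest. Spermatocyte and round spermatid markers separated those 2 stages: the summed level of 6 spermatocyte markers was 1729 to 2825 counts per 1000000 (CPM) in pachytene spermatocytes against 271 to 459 in round spermatids, and 6 round spermatid markers summed to 1249.6 to 1423 CPM in round spermatids against 348 to 538 in pachytene spermatocytes. The 6 elongating spermatid markers did not separate WT condensing (22044 to 33249 CPM) from WT round spermatids (22547 to 25066 CPM), so this list did not set the condensing label apart. The round spermatid markers did differ, at 697 to 836 CPM in condensing spermatids, between the pachytene and round spermatid ranges. Condensing spermatid fractions also held 744 to 918 CPM of the spermatocyte markers and 312 to 494 CPM of 8 Sertoli cell markers, which were at 12.5 to 51.4 CPM in the other testis fractions. The spermatozoa libraries, although labelled testis, held transcripts of 5 epididymis markers (1793 and 1896 CPM in WT, 550.0 CPM in KO, with Lcn5 and Lcn8 at 0 counts) and of 5 macrophage markers (242 and 245 CPM in WT, 1076 CPM in KO). H2afb1, the symbol under which the files list an H2A.L.2 gene, was lower in KO round spermatids (25.3, 25.4 and 20.7 CPM) than in WT (201, 206 and 211 CPM). WT round spermatid replicates 2 and 3 were nearly the same library by counts, with a chi-square per degree of freedom of 1.23 where the other replicate pairs had 3.07 to 28.5. The largest value was that of WT pachytene spermatocyte replicates 2 and 3. In bulk RNA, fewer cells of a type and less RNA per cell cannot be told apart.

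Promoter sequences were searched for motifs that the CREM, RFX, MYB and SOX families, to which members belong, are known to bind. The motif of TBP, the relative of the member TBPL1, was searched as well. RefSeq windows of 300 bases (250 before and 50 after a transcription start; GRCm38.p6) were found for 7 of the 9 genes, in 8 windows. The X-box core GTTGCC lay in the Rfx2 and Rfx3 windows and in 12.5% of all 32851 windows, and the MYB motif CAACNG lay in the Rfx2, Rfx3, Tcfl5 and Taf7l windows and in 35% of all. The short cAMP-response element TGACG lay in the Rfx2 window alone (20.8% of all), and the full element TGACGTCA in none of the 8 (1.79% of all). The SOX motif ACAAT lay in the Fhl5, Sox30 and Taf7l windows (31% of all), and TATAAA in that of Taf7l (13.6% of all). Both strands were searched, TGACG is contained in TGACGTCA, and a match is a description of letters only. Shown are parts of the windows with the X-box core (Rfx2, Rfx3) or with 3 MYB motifs upstream of the start (Rfx2, Tcfl5). They are the 250 bases before the start of Rfx2 (chr17:56831009-56831258, minus strand) and of Tcfl5 (chr2:180642692-180642941, minus strand), and a stretch of 30 bases after the start of Rfx3 (chr19:28011123-28011152, minus strand). Each is read in the direction of transcription. Capitals mark the CREM (short element), RFX and MYB motifs on either strand:
Rfx2: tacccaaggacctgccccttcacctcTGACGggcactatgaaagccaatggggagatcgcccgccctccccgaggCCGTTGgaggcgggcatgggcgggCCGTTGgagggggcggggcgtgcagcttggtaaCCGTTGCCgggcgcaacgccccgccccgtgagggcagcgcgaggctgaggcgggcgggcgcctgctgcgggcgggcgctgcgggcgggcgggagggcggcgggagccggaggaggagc
Rfx3: tgtgagttatagCAACCGTTGCCttgtgaa
Tcfl5: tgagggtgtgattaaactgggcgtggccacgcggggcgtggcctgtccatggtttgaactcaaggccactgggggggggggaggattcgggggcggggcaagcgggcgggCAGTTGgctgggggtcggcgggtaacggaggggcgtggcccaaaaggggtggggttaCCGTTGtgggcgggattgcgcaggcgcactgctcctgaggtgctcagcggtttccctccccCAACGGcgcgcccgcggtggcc
In both RFX genes a MYB motif and the X-box core overlap to read CCGTTGCC, 118 bases before the start of Rfx2 and 29 bases after that of Rfx3. Rfx2 and Tcfl5 each hold 3 MYB motifs before the start, at 175, 151 and 118 bases in Rfx2 and 140, 83 and 22 in Tcfl5.

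Of the 9 factors, 5 were higher in WT round spermatids than in WT pachytene spermatocytes, 2 were lower and 2 did not pass the test. Fhl5, Rfx3, Taf7l, Sox30 and Crem rose, and Mybl1 and Tcfl5 fell. Between the same WT fractions 5 peritubular myoid markers went from 54.3 to 95.2 CPM to 329 to 336 CPM. The 5 macrophage markers went from 1.91 to 3.61 CPM to 16.2 to 19.9 CPM. In the other direction, 6 Leydig cell markers went from 69.7 to 140 CPM down to 9.94 to 12.6 CPM. WT condensing spermatids held 130 to 199 CPM of the Leydig cell markers. The part of all these markers in the members' values was not tested. Calls here are an adjusted p under 0.05 by the quasi-likelihood F test of edgeR, adjusted by Benjamini-Hochberg over all genes tested, and 70.3% of the 14011 genes tested were called in this comparison (34.4% higher, 35.9% lower), so the number of members called is near the background. The median log2 fold change was 0.90 for the 9 members and -0.02 for all genes tested. The members were chosen with earlier results of these data known, so this difference only describes them. The libraries of the 2 stages did not overlap for 6 members (73.2% of all genes). The same 7 members were called with WT round spermatid replicates 2 and 3 summed as 1 library.

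From round to condensing spermatids none rose and 5 fell: Taf7l, Tbpl1, Crem, Rfx2 and Sox30. The background was 50% of genes called, with 28.3% higher and 21.8% lower, and 7 members did not overlap between the groups (61.7% of all genes). From condensing spermatids to spermatozoa 6 fell and Rfx3 rose (72.4% of 15116 genes called, 35.8% lower and 36.6% higher), and 7 members did not overlap (81.3% of all genes). The plot of changes between WT stages shows each value with its interval.

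**Figure D1:**
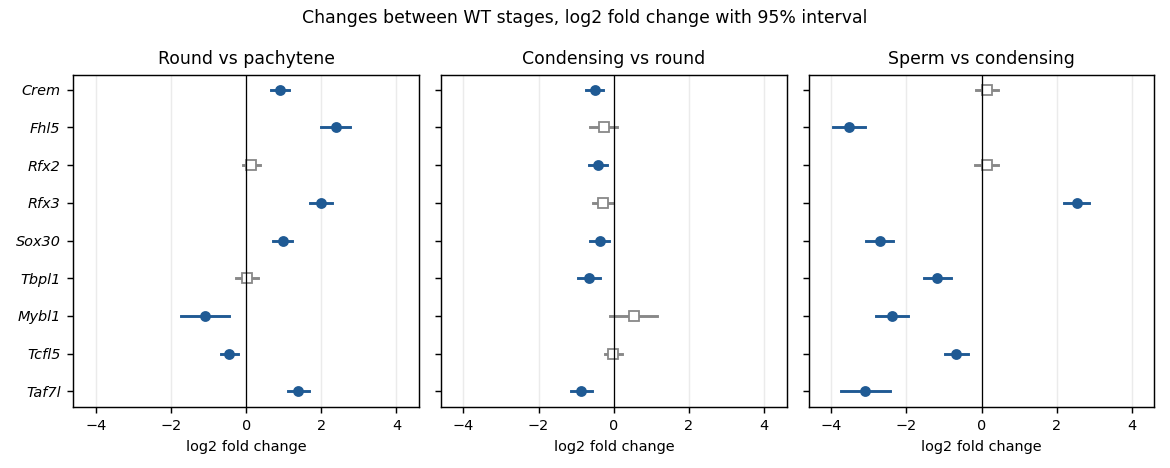
Log2 fold change (horizontal axis) of each factor between consecutive WT stages, with 95% intervals as lines. Filled blue circles passed an adjusted p of 0.05 and open grey squares did not; Rfx3 is the only factor to the right of 0 and past the threshold in the last panel.

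Per length of gene, the order of the factors changed with stage. On the RPKM scale (CPM per kilobase of exon), Tcfl5 was highest in WT pachytene spermatocytes (136 ± 3.65, SD, n = 3), followed by Tbpl1 (91.0 ± 2.30) and Rfx2 (57.0 ± 3.47). In WT round spermatids Fhl5 was highest (189 ± 19.4 RPKM), ahead of Tcfl5 (97.0 ± 0.52), Tbpl1 (89.8 ± 0.79) and Sox30 (82.1 ± 0.52). In WT condensing spermatids Fhl5 remained first (154 ± 16.7 RPKM), and Sox30 (62.2 ± 0.74) and Tbpl1 (56.0 ± 10.7) did not differ beyond their spread. In WT spermatozoa Tcfl5 (57.1 ± 0.08, n = 2), Rfx2 (48.4 ± 5.70) and Rfx3 (36.7 ± 8.08) led. Rfx3 had the lowest level per length in pachytene spermatocytes and in both spermatid stages (2.10, 8.17 and 6.57 RPKM).

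**Figure D2:**
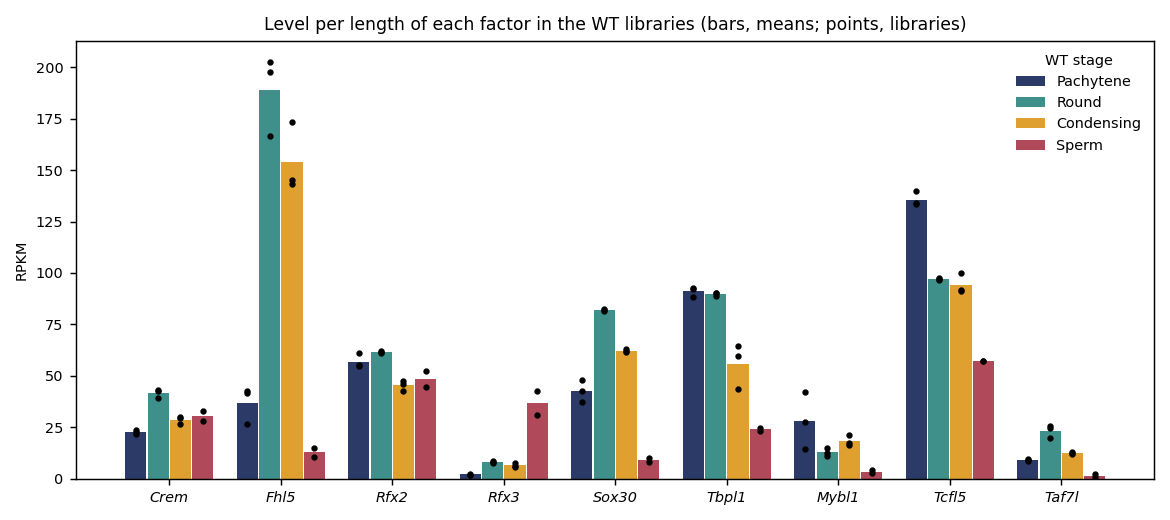
Level per length (vertical axis, RPKM) of each factor in the WT libraries, with bars for stage means and points for single libraries. Fhl5 stands highest in round and condensing spermatids at 189 and 154 RPKM, and Rfx3 rises to 36.7 RPKM in spermatozoa.

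Crem and its coactivator Fhl5 both rose into round spermatids, Fhl5 by more, and Crem fell into condensing spermatids. Crem (18:3266048-3337748, minus strand, GRCm38) had 135, 128 and 140.2 CPM in the 3 WT pachytene libraries, 231, 253 and 252 CPM in round spermatids and, later, 176, 173 and 158 CPM in condensing ones. No library of one stage overlapped another, with round spermatids highest. The log2 fold change was 0.90 ± 0.11 (SE) into round spermatids (adjusted p = 8.36e-06) and -0.51 ± 0.11 into condensing spermatids (adjusted p = 0.00203). Counts were summed over all exons of a gene, so the activator and repressor isoforms of Crem were not separated.

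Fhl5 (4:25199908-25242876, minus strand) had the largest rise of the members into round spermatids. It was at 48.9, 50.2 and 31.1 CPM in WT pachytene libraries and at 195, 237 and 231 CPM in round spermatids, a log2 fold change of 2.38 ± 0.18 (adjusted p = 1.37e-07). The low pachytene library, replicate 3, was also that with the least of the 6 elongating spermatid markers (1812 CPM, against 4602 and 4321 in replicates 1 and 2). Replicate 3 was also the lowest WT pachytene library for Rfx3, Sox30 and Taf7l (21.8, 111 and 18.9 CPM), but the highest for Crem (140.2 CPM). The part of such transcripts in the values of these members was not tested. In condensing spermatids Fhl5 was at 170, 168 and 203 CPM, overlapping round spermatids, with a log2 difference of -0.27 (95% interval -0.63 to 0.09, adjusted p = 0.19).

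Genes known to depend on CREM, or to work with it, were counted as lists. Of 10 post-meiotic genes with CREM-dependent expression, 9 rose and none fell in round spermatids, with Prm1, a protamine that packs sperm DNA (551 to 3852 mean CPM; log2 fold change 2.84 ± 0.32, adjusted p = 3.45e-06), and Tnp1, a transition protein (524 to 3624 mean CPM; 2.83 ± 0.32), the largest. Tnp1, Tnp2, Prm1, Prm2 and Odf1 of this list are also elongating spermatid markers, so its count is in part a count of those markers. Of the 10, 2 rose in condensing spermatids (Odf1, a tail outer dense fibre protein, 0.89 ± 0.21, and Smcp, 0.67 ± 0.22) and Ldhc, a sperm lactate dehydrogenase, fell (-0.39 ± 0.12). These 3 became 1 without WT condensing spermatids replicate 1 or WT round spermatids replicate 1 or 2, and 5 without WT pachytene spermatocytes replicate 3. Of 15 partners and relatives, 14 were tested, and 7 rose and 1 fell in round spermatids. Camk4, a calcium-dependent kinase of this pathway, rose (2.25 ± 0.24, adjusted p = 2.70e-06), as did the LIM protein gene Fhl2 from 0.0398 to 1.15 mean CPM, and Gtf2a1, a subunit of general factor TFIIA, fell (-1.79 ± 0.15). In condensing spermatids 5 rose and 5 fell, among them Gtf2a1l, the germ cell TFIIA subunit (-0.64 ± 0.14), Prkaca, a catalytic subunit of protein kinase A (-0.67 ± 0.16), and Fhl1, which rose from 1.10 to 13.0 mean CPM in the fractions that also held more Sertoli markers; their part in it was not tested.

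The 2 RFX genes differed in stage pattern. Rfx2 (17:56775897-56831013, minus strand) was high in every WT testis library, at 400.2, 446 and 403 CPM in pachytene spermatocytes and 445, 450.2 and 453 in round spermatids. The groups overlapped, and the log2 difference was 0.14 (95% interval -0.09 to 0.38, adjusted p = 0.262). With only genes of at least 10 counts in every library it was 0.241 (adjusted p = 0.0487). In condensing spermatids it was lower, at 312, 337 and 349 CPM, and no library overlapped round spermatids (log2 fold change -0.41 ± 0.11, adjusted p = 0.00796).

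Rfx3 (19:27761721-28011166, minus strand) was nearly 4-fold higher in round spermatids. It had 24.8, 22.8 and 21.8 CPM in WT pachytene libraries and 86.5, 92.9 and 90.9 in round spermatids, a fold of 3.98 (95% interval 3.27 to 4.83, adjusted p = 5.70e-08). In condensing spermatids, at 65.2, 68.2 and 84.0 CPM, all libraries lay below the round spermatids, but the fall missed the threshold (log2 difference -0.29, 95% interval -0.56 to -0.02, adjusted p = 0.0652). It passed with DESeq2 size factors (adjusted p = 0.0357), in the DESeq2 Wald test (0.0385), without WT condensing spermatids replicate 3 (0.0113) and without WT pachytene spermatocytes replicate 3 (0.0397).

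Among 10 RFX and SOX relatives, 6 rose and 3 fell in round spermatids. Rfx1 rose from 44.6 to 187 mean CPM (log2 fold change 2.10 ± 0.19, adjusted p = 6.34e-07) and Rfx6 from 0.556 to 2.89 (2.41 ± 0.37), while Rfx5, a regulator of MHC class II genes, and Rfx7 fell (-2.19 ± 0.15 and -1.19 ± 0.18). In condensing spermatids 3 rose and 6 fell, with Sox5 down (-1.08 ± 0.18) and Sox9, itself a Sertoli marker, up from 1.24 to 13.4 mean CPM. Of 11 cilium genes with RFX-dependent expression, 3 rose and 7 fell in round spermatids. Foxj1, a master factor of motile cilia, rose (2.01 ± 0.26, adjusted p = 1.47e-05), as did the axonemal dynein gene Dnah9 (1.55 ± 0.24), whereas the intraflagellar transport genes Ift140 (-0.91 ± 0.14) and Dync2h1 (-0.60 ± 0.24) fell. None of the 11 rose and 6 fell in condensing spermatids, Foxj1 (-1.32 ± 0.26) and Dync2li1 (-0.57 ± 0.13) most; 3 were called without WT condensing spermatids replicate 1 or 3 or WT round spermatids replicate 1 or 2.

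Sox30 (11:45980310-46017994, plus strand) also rose and then fell, as Crem did. WT pachytene libraries had 129, 144 and 111 CPM, round spermatids were at 245, 248 and 245 CPM and condensing spermatids at 186, 184 and 189, with no overlap between any 2 of these stages. It rose into round spermatids (log2 fold change 0.98 ± 0.12, adjusted p = 6.61e-06) and fell into condensing spermatids (-0.37 ± 0.12, adjusted p = 0.0165). The fall missed the threshold without WT condensing spermatids replicate 1 (-0.378, adjusted p = 0.0504) or without WT round spermatids replicate 2 (-0.379, adjusted p = 0.0512).

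The 2 members related to general transcription factors behaved differently at the first step. Tbpl1 (10:22703879-22731938, minus strand) had 289, 301 and 302 CPM in WT pachytene libraries and 295, 296 and 291 in round spermatids. These overlapped, and the log2 difference was 0.01 (95% interval -0.28 to 0.31, adjusted p = 0.942). It then fell to 195, 210.4 and 143 CPM in condensing spermatids, below every round spermatid library (-0.66 ± 0.14, adjusted p = 0.00171).

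Taf7l (X:134460118-134476490, minus strand), an X-linked gene, was at 20.7, 21.5 and 18.9 CPM in WT pachytene libraries and at 44.0, 55.1 and 57.3 in round spermatids. All round spermatid libraries lay above all pachytene libraries (log2 fold change 1.39 ± 0.13, adjusted p = 8.50e-07). In condensing spermatids it was at 27.2, 29.7 and 27.8 CPM, between the other stages without overlap, the largest fall of the 9 members at this step (-0.86 ± 0.13, adjusted p = 0.000176).

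Of 10 general factor relatives 7 were tested, and 3 rose and 2 fell in round spermatids. Taf7, the autosomal counterpart of Taf7l, fell from 35.9 to 14.0 mean CPM (log2 fold change -1.32 ± 0.15, adjusted p = 3.34e-06) where Taf7l rose. Tbp, the TATA-binding protein gene and counterpart of Tbpl1, was, like Tbpl1, not called into round spermatids (log2 difference -0.24, adjusted p = 0.063; named after its values were seen), and Gtf2b (general factor TFIIB) fell (-0.45 ± 0.14). Taf9b (1.51 ± 0.15) and Taf1, the largest TFIID subunit (0.60 ± 0.15), rose. In condensing spermatids 2 rose (Taf4b, 0.49 ± 0.16, and Taf7, 0.44 ± 0.15) and 3 fell, with Taf9b (-0.87 ± 0.15) and Tbp (-0.71 ± 0.11, adjusted p = 0.000192) the largest.

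The 2 factors known from pachytene spermatocytes, Mybl1 and Tcfl5, both fell into round spermatids. Mybl1 (1:9667415-9700209, minus strand) varied widely among WT pachytene libraries, at 149, 76.8 and 227 CPM, against 59.0, 80.0 and 68.4 in round spermatids. Pachytene replicate 2 was within the round spermatid range and the other 2 were above it. The 6 spermatocyte markers summed to 1874, 1729 and 2349.9 CPM in these 3 libraries, in the same order as Mybl1, and their part in the spread was not tested. The log2 fold change was -1.10 ± 0.29 (adjusted p = 0.00437). Without WT pachytene spermatocytes replicate 3 it was -0.675 (adjusted p = 0.0113), and without replicate 2 it was -1.42 (adjusted p = 2.19e-05).

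Mybl1 was higher in all condensing spermatid libraries, at 93.4, 114 and 87.3 CPM, than in round spermatids and in pachytene replicate 2, but the difference from round spermatids was not called (log2 difference 0.53, 95% interval -0.10 to 1.16, adjusted p = 0.148). It was called without WT pachytene spermatocytes replicate 2 (0.523, adjusted p = 0.0233) or replicate 3 (0.519, adjusted p = 0.0365), libraries that enter this contrast only through the shared estimate of spread. The WT condensing fractions also held more of the 6 spermatocyte markers (744 to 918 CPM against 335 to 459 in WT round spermatids), and the part of such transcripts in the Mybl1 values was not tested.

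Tcfl5 (2:180621956-180642708, minus strand) was at 424, 443 and 422 CPM in WT pachytene libraries and at 306, 307 and 309 in round spermatids, with no overlap (log2 fold change -0.45 ± 0.11, adjusted p = 0.00183). It was at 289, 317 and 290 CPM in condensing spermatids, overlapping round spermatids, with a log2 difference of -0.02 (95% interval -0.25 to 0.21, adjusted p = 0.909).

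Of 11 MYB relatives and MYBL1-dependent genes, 10 were tested, and 2 rose and 7 fell in round spermatids. Piwil1, a piRNA-binding protein gene that is also one of the spermatocyte markers, fell from 1157 to 63.5 mean CPM (log2 fold change -4.16 ± 0.17, adjusted p = 3.94e-09), and Tdrd5, another piRNA pathway gene, from 304 to 16.8 (-4.14 ± 0.15). Mybl2 (1.15 ± 0.19) and the meiotic cyclin gene Ccna1 (0.77 ± 0.15) rose. In condensing spermatids 4 rose and 4 fell: Tdrd5 (2.16 ± 0.14) and Tdrd1 (1.68 ± 0.21) rose, and Mybl2 (-0.97 ± 0.20) and Ccna1 (-0.78 ± 0.15) fell. None of 7 tested premeiotic factors passed the test into round spermatids, and 3 rose into condensing spermatids, with Dmrt1 at 0.86 ± 0.23 and Sohlh2 at 0.80 ± 0.29. There the 6 spermatogonium markers, which share Dmrt1, Zbtb16 and Stra8 with this list, went from 43.6 to 47.7 CPM in WT round to 69.6 to 77.7 CPM in WT condensing fractions, and the Sertoli markers from 33.3 to 51.4 up to 387 to 494 CPM; their part in the rise was not tested. The first count became 1 without WT pachytene spermatocytes replicate 2 or 3, and the latter 1 without WT condensing spermatids replicate 2 or WT round spermatids replicate 2 or 3. Over all list genes, 30 of 69 tested rose and 20 fell in round spermatids, and 19 rose and 25 fell in condensing spermatids.

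**Figure D3:**
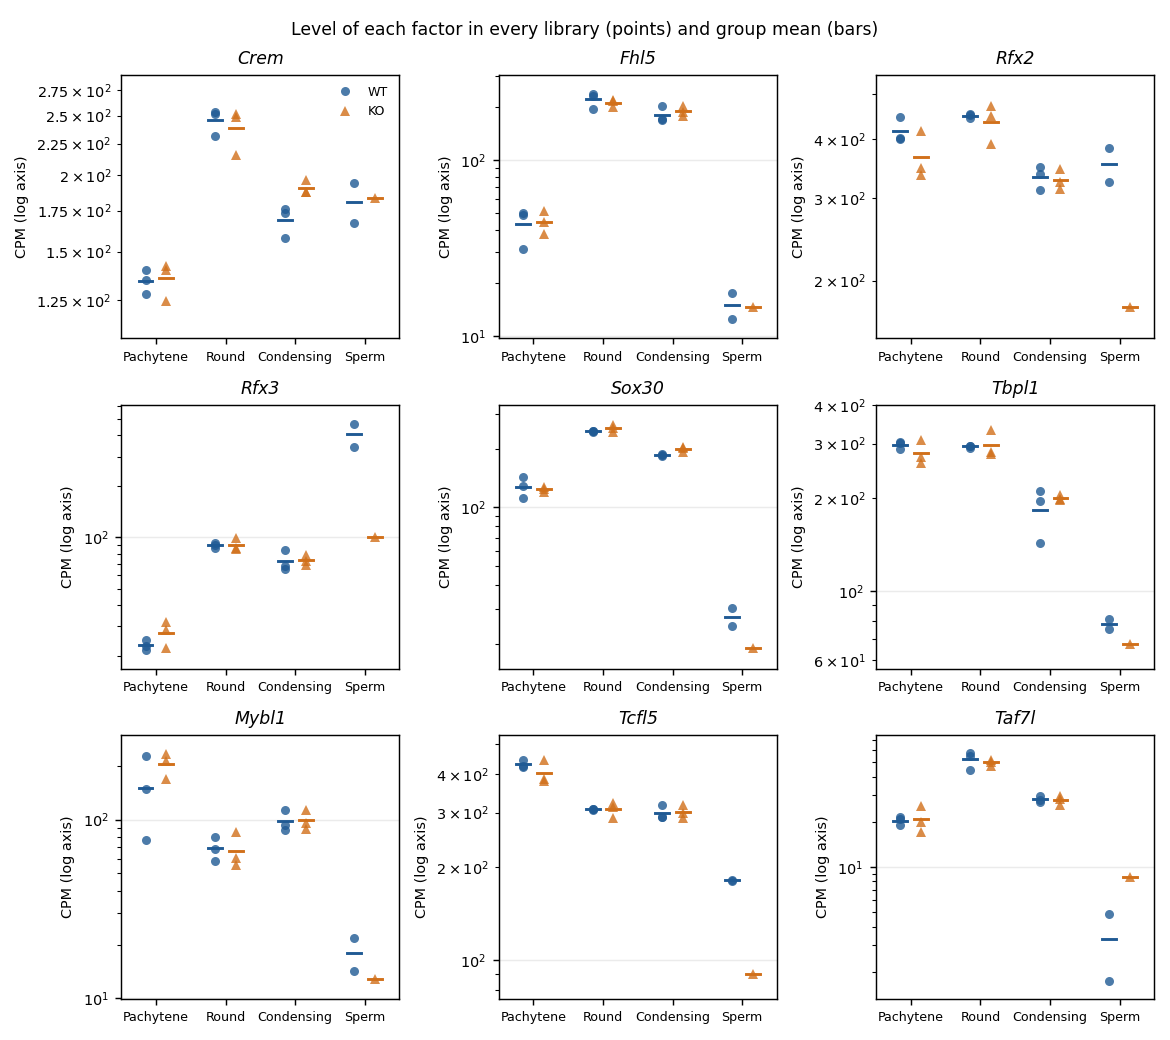
Level of each factor (vertical axis, CPM on a log scale that differs between panels) by stage (horizontal axis) in every WT library (blue circles) and H2al2 KO library (orange triangles), with short lines for group means. KO and WT points overlap in the 3 testis stages, except for Crem and Sox30 in condensing spermatids. WT pachytene Mybl1 is spread from 76.8 to 227 CPM, and KO spermatozoa, 1 library, lie below both WT libraries for Rfx2, Rfx3 and Tcfl5.

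In WT spermatozoa, whose libraries were compared with the 3 WT condensing spermatid libraries, Rfx3 was the only member that rose. It reached 468 and 342 CPM against 65.2 to 84.0 in condensing spermatids, a fold of 5.78 (95% interval 4.56 to 7.32, adjusted p = 1.69e-11), and leaving out each of the 5 libraries in turn gave log2 fold changes of 2.3 to 2.75. The KO spermatozoa library had 100.5 CPM of Rfx3 (exact Poisson 95% interval 89.9 to 112, counting error only). The 5 epididymis markers, at most 1.76 CPM in WT condensing spermatids, were at 1793 and 1896 CPM in the WT and 550.0 CPM in the KO spermatozoa; their part in the Rfx3 values was not tested.

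Fhl5 fell most, from 168 to 203 CPM in condensing spermatids to 17.5 and 12.5 CPM in WT spermatozoa (log2 fold change -3.53 ± 0.20, adjusted p = 1.88e-12). Taf7l was at 1.75 and 4.86 CPM (-3.10 ± 0.31), Sox30 at 30.3 and 24.6 CPM (-2.71 ± 0.17) and Mybl1 at 21.9 and 14.2 CPM (-2.38 ± 0.20). Smaller falls were measured for Tbpl1, at 75.5 and 81.2 CPM (-1.18 ± 0.17), and Tcfl5, at 181 CPM in both libraries (-0.68 ± 0.15). Crem, at 194 and 167 CPM, and Rfx2, at 384 and 325 CPM, overlapped condensing spermatids and had log2 differences of 0.14 each (95% intervals -0.16 to 0.44 and -0.17 to 0.45).

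The lists mostly fell as well, with 12 of 68 tested genes higher and 44 lower. Of the CREM-dependent genes, Odf1 rose to 15496 mean CPM (2.41 ± 0.21), whereas Tnp1 (-2.93 ± 0.22) and Ldhc (-2.03 ± 0.18) were among the 7 that fell. Of the CREM partners 5 rose, among them Fhl1 (2.65 ± 0.18) and Prkacb (2.33 ± 0.21), and 5 fell, Gtf2a2 (-1.97 ± 0.18) and Gtf2a1l (-1.09 ± 0.17) most. Of the cilium genes 9 fell and none rose, led by Ift172 (-1.69 ± 0.16) and Foxj1 (-1.62 ± 0.21). Among the RFX and SOX relatives 2 rose (Rfx5, 1.20 ± 0.23, and Rfx7, 0.56 ± 0.16) and 6 fell, Rfx8 (-1.61 ± 0.21) and Sox5 (-1.56 ± 0.18) most. General factor relatives gave 2 higher (Taf1, 1.26 ± 0.18, and Taf4b, 0.61 ± 0.19) and 4 lower, led by Taf9 (-2.13 ± 0.17) and Taf9b (-1.66 ± 0.32). The MYB list gave 8 lower, led by Mael (-2.27 ± 0.17) and Tdrd12 (-2.14 ± 0.25), and Myb higher, from 0.359 to 10.3 mean CPM. Premeiotic factors gave 5 lower, with Sall4 and Lin28a from 3.03 and 3.07 mean CPM to 0 in both libraries, and Zbtb16 higher (1.15 ± 0.29). Between these WT fractions the macrophage markers went from 20.5 to 25.2 CPM up to 242 and 245 CPM. The epididymis markers went from at most 1.76 CPM to 1793 and 1896 CPM, and the Sertoli markers down from 387 to 494 CPM to 206 and 250 CPM. The part of such transcripts in the list values was not tested.

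The 1 KO spermatozoa library allowed no test against WT. It was below both WT libraries for 6 members, above both for Taf7l and between them for Crem and Fhl5. The share of all genes outside both WT libraries was not computed, so these counts have no background to be read against. Rfx2 was at 176 CPM (exact Poisson 95% interval 162 to 191) against 384 and 325, and Tcfl5 at 90.1 CPM (80.2 to 101) against 181 in both WT libraries. Rfx3, Rfx2 and Tcfl5 were 0.248, 0.496 and 0.498 times the WT mean, whereas Crem was 1.02 times and Fhl5 0.975 times it. This library had 57.7% of its counts on rows that name no gene (47.8% and 48.5% in WT) and 5.93% of gene counts on mitochondrial genes (10.9% in both WT libraries). It held 1076 CPM of the macrophage markers against 242 and 245 in the WT libraries, and less of the 6 elongating spermatid markers (9618 CPM against 23066 and 25461), and their part in these values was not tested.

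In the 3 testis stages, none of the 9 members was called different between KO and WT. In pachytene spermatocytes 0 of 9 were called by edgeR and 0 had an unadjusted p under 0.05 (0% of 12236 genes called, 815 with an unadjusted p under 0.05). In round spermatids the counts were also 0 and 0 (0.0156% called, 753 of 12804), and likewise in condensing spermatids (0.00728% called, 870 of 13734). The DESeq2 Wald test called 0 members in each stage. The lowest adjusted p of a member was 0.656, 0.99 and 0.864 in the 3 stages. H2afb1 itself passed the edgeR test in round and condensing spermatids (adjusted p = 3.40e-08 and 9.53e-07) but not in pachytene spermatocytes. There it was lower in KO (log2 fold change -2.76 ± 0.37, adjusted p = 0.484), so the absence of calls in that stage says little.

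The intervals limit what a difference could be. In round spermatids every member's 95% interval of the log2 difference lay between -0.38 and 0.31, and in condensing spermatids between -0.28 and 0.39. Those of round spermatids count WT replicates 2 and 3, nearly the same library by counts, as separate, and so may be too narrow. In pachytene spermatocytes the intervals were wider, up to 1.29 for Mybl1, which had 212, 232 and 170 CPM in KO against 149, 76.8 and 227 in WT (log2 difference 0.48, interval -0.32 to 1.29, adjusted p = 0.665), and up to 0.69 for Rfx3, at 28.6, 31.7 and 22.2 CPM in KO against 24.8, 22.8 and 21.8 (0.32, interval -0.05 to 0.69). Without single libraries the Mybl1 difference ran from 0.134 to 0.969, with no call.

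KO and WT libraries did not overlap for 2 members, both in condensing spermatids, where 12.1% of all genes did not overlap. Crem was at 187, 188 and 196 CPM in KO against 176, 173 and 158 in WT (log2 difference 0.16, interval -0.05 to 0.37), and Sox30 at 192, 203 and 205 against 186, 184 and 189 (0.09, interval -0.12 to 0.30). No member failed to overlap in pachytene spermatocytes (11.4% of genes) or round spermatids (9.86%). The 8 Sertoli markers were lower in KO without overlap, at 312 to 374 CPM against 387 to 494 in condensing spermatids. The same held in round (25.1 to 31.2 against 33.3 to 51.4) and pachytene stages (12.5 to 21.6 against 29.5 to 34.8). In condensing spermatids 6 Leydig cell markers were also lower (75.6 to 114 against 130 to 199). There the round spermatid markers were higher (790 to 836 against 697 to 764). The part of such transcripts in the members' values was not tested. None of the list genes tested was called between KO and WT in any of the 3 stages.

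**Figure D4:**
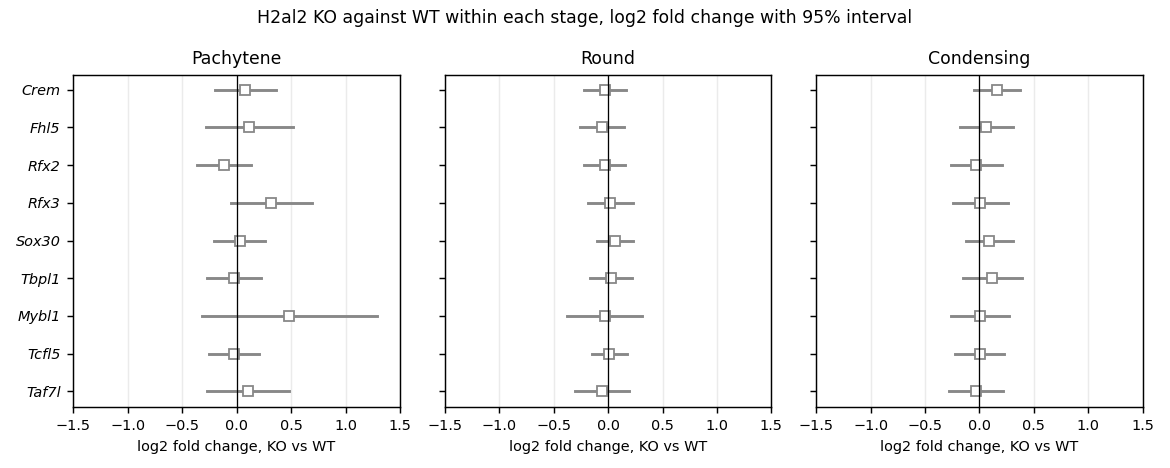
Log2 fold change of H2al2 KO against WT (horizontal axis) for each factor within pachytene spermatocytes, round spermatids and condensing spermatids, with 95% intervals as lines and open grey squares for values that did not pass the test. All 27 intervals cross 0, and those of round spermatids, with WT replicates 2 and 3 counted as separate libraries, lie within -0.38 and 0.31.

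Stage changes were also tested within the KO libraries, where 7 members did not overlap at the first step (74.1% of genes) and 7 at the next (61.3% of genes). From pachytene spermatocytes to round spermatids 8 of 9 were called (74.9% of 13877 genes, 36.5% higher and 38.4% lower), 6 higher and 2 lower, with Fhl5 at 2.23 ± 0.12, Rfx3 at 1.71 ± 0.13, Taf7l at 1.25 ± 0.13 and Mybl1 at -1.62 ± 0.15. Mybl1 did not overlap between the stages in KO, at 212, 232 and 170 CPM against 55.7, 60.8 and 85.0. Rfx2 passed narrowly (0.24 ± 0.10, adjusted p = 0.0438), and its call was lost with library sizes alone (0.0854, adjusted p = 0.434), without filtering (0.0521) and without each of 6 single libraries. From round to condensing spermatids 7 were called (54.2% of genes, 29.7% higher and 24.5% lower), with Mybl1 higher (0.58 ± 0.15, adjusted p = 0.00377) and 6 lower, Taf7l (-0.82 ± 0.13) and Tbpl1 (-0.56 ± 0.10) most. In the fit on all 18 libraries Mybl1 was not called (0.57, adjusted p = 0.0796). Rfx3 (-0.29 ± 0.12, adjusted p = 0.0453) was not called without KO round spermatids replicate 2 (-0.218, adjusted p = 0.181) nor without any of the 3 KO condensing libraries, and Crem (-0.31 ± 0.10, adjusted p = 0.0124) not without KO round spermatids replicate 2 (-0.275, adjusted p = 0.0544).

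The difference between the KO effects of consecutive stages was tested directly and called for 0 members. Between round and pachytene stages 0 members and 0% of 14479 genes were called (1051 genes with an unadjusted p under 0.05), and between condensing and round stages 0 members and 0% (407 genes). No member had an unadjusted p under 0.05 in either. The widest interval was again that of Mybl1, -1.30 to 0.24 between round and pachytene stages.

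Patterns over the 18 testis libraries were compared as Pearson correlations of log2 CPM, in which libraries of one stage share that stage and give many genes like patterns. Among the members, Fhl5 and Rfx3 were most alike (r = 0.984), followed by Fhl5 and Sox30 (0.95), and Rfx3 and Tcfl5 were most opposed (-0.949). Among 10182 other genes with at least 5 CPM, Trim36 (0.998), Galntl5 and Ccdc169 were nearest to Fhl5, and Rfx1 (0.995), Pacs2 and Desi1 to Sox30. Fam217a (0.992), Stat4 and Kifap3 were nearest to Rfx3, and Smek2 (0.994), Gm1564 and Sgol2a to Mybl1. Dsg1a (0.986), BC061237 and Itga1 were nearest to Crem, Mbd3 (0.983), Gpr108 and Rabl6 to Tcfl5, and Slc25a25 (0.978), Gm17019 and Smim6 to Taf7l. Tbpl1 had 1700010I14Rik (0.978), Rnf32 and Stk33, and Rfx2 had the lowest leading value of the members, with Xpo6 (0.957), Limd2 and Dalrd3.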

How the data were processed

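The libraries were stranded total RNA (TruSeq, RiboZero), sequenced as paired-end 75 reads per the labels. The authors aligned reads to mm10 with STAR 2.7.11b and counted them per gene with HTSeq (exons, reverse strand, intersection-strict, no multi-mapping reads), and deposited raw counts, 1 column per library. In each file 5 rows named no gene; they held 34.6% to 57.7% of all counts and were left out. Groups came from the labels. The members and gene lists were chosen with earlier results of these data known.

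Tests used edgeR 4.0.16 in R 4.3.3 (TMM, filterByExpr, quasi-likelihood F test, Benjamini-Hochberg adjustment over all genes tested, threshold 0.05), with 1 fit for the 3 WT testis stages, 1 for the 3 KO stages, 1 for WT spermatozoa and condensing spermatids, 1 per stage for KO against WT, and 1 on 18 libraries for the difference of KO effects. Standard errors come from the log2 fold change and its F statistic. All 9 members passed the filter in each fit. CPM used TMM over all 21 libraries, and RPKM divided it by the summed exon length of GENCODE vM21 (GRCm38, the assembly of mm10). Alternatives were DESeq2 1.42.0 (size factors; Wald test), library size alone, filtering on 10 counts in each library or not at all, replicate number as a block, all 18 libraries, WT round spermatid replicates 2 and 3 summed, and each library left out. List genes named are those called with at least 1 CPM and the largest changes, up to 2 per direction, list and WT comparison; similar genes are the 3 of highest correlation (prior count 2). Scripts were tested on simulated counts.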

Additional observations from a re-analysis of the deposited data

Results flagged for a closer look

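Taf7l was at 8.53 CPM in the 1 KO spermatozoa library, which enters no test, against 1.75 and 4.86 CPM in the WT spermatozoa libraries. The KO value rests on 28 counts (exact Poisson 95% interval 5.67 to 12.3 CPM, counting error only), and with 1 library the difference has no replicate check.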

How the results depend on the processing

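The count of members called in either direction stayed within 1.5 times its main value in each comparison under all alternatives. By direction, the number that rose into WT condensing spermatids went from 0 to 1 (Mybl1) without WT pachytene spermatocytes replicate 2 or 3, and in KO from 1 to 0 in the fit on all 18 libraries (Mybl1, adjusted p = 0.0796). Of 1502 log2 fold changes of members under an alternative, 1374 kept direction and side of the threshold, 21 lost the call, 7 gained it and 100 changed sign, all of them values not called; the cause was not tested. Correlations of same-numbered KO and WT deviations were -0.23 to 0.33, with no stage above 0.1 in all 3 pairs. In round spermatids all 3 were positive (0.326, 0.14 and 0.0872), so pairing by replicate number was not settled. With the replicate block 7 members were called from pachytene to round spermatids in WT and 5 from round to condensing, as without it, and 7 and 6 in KO, where Rfx2 (0.242, adjusted p = 0.0586) and Rfx3 (-0.287, adjusted p = 0.0504) were lost; 0 were called between KO and WT. Over all genes, KO against WT calls ranged from 0 to 4 in pachytene spermatocytes, and with the block were 61 in round and 26 in condensing spermatids, against 2 and 1. Scaling by library size alone moved the all-gene median by -0.19 (WT) and -0.15 (KO) from pachytene to round spermatids. At least 10 counts in every library left 6 members called in spermatozoa, since Taf7l was not tested. Counts of list genes moved over 1.5 times in 20 of 315 cases, among them 3 in place of 6 cilium genes into condensing spermatids with library size alone.

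With library size alone, signs changed from pachytene to round spermatids for Rfx2 (-0.0448) and Tbpl1 (-0.177) in WT and Tbpl1 (-0.0798) in KO, for Tcfl5 into WT condensing spermatids (0.0474), in KO against WT for Sox30 in pachytene (-0.00603) and for Rfx3 (-0.0195), Mybl1 (-0.0225) and Tcfl5 (-0.0315) in condensing spermatids, and in the difference of KO effects between condensing and round spermatids for Rfx2 (-0.0421), Sox30 (-0.0154), Mybl1 (-0.00467) and Taf7l (-0.0174). Without a filter they changed for Tbpl1 into WT round spermatids (-0.0198) and, in that difference, for Rfx3 (0.0108) and Tcfl5 (0.00921). With at least 10 counts they changed for Tcfl5 into condensing spermatids (0.0527 in WT, 0.0377 in KO). DESeq2 size factors and the Wald test changed Rfx2 in that difference (-0.00858 and -0.00849). With WT round spermatid replicates 2 and 3 summed, Mybl1 changed in KO round spermatids (0.0191), and Rfx2 (-0.00405), Mybl1 (-0.0114) and Taf7l (-0.0238) in that difference.

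Leaving out single libraries gave these ranges where a sign changed. For KO against WT in pachytene spermatocytes they were -0.00311 to 0.164 for Crem, -0.0336 to 0.234 for Fhl5, -0.0181 to 0.0667 for Sox30, -0.0935 to 0.244 for Taf7l, -0.0798 to 0.0389 for Tbpl1 and -0.0808 to 0.0127 for Tcfl5. In round spermatids they were -0.0674 to 0.0484 for Crem, -0.137 to 0.00468 for Fhl5, -0.236 to 0.0965 for Mybl1, -0.0872 to 0.0451 for Rfx2, -0.0526 to 0.0682 for Rfx3, -0.16 to 0.0255 for Taf7l, -0.0616 to 0.0841 for Tbpl1 and -0.0136 to 0.0589 for Tcfl5. In condensing spermatids they were -0.102 to 0.121 for Mybl1, -0.0812 to 0.0167 for Rfx2, -0.0687 to 0.138 for Rfx3, -0.0771 to 0.0255 for Taf7l, -0.0205 to 0.223 for Tbpl1 and -0.0319 to 0.0391 for Tcfl5. The difference of KO effects between round and pachytene stages ranged from -0.121 to 0.00428 for Crem, -0.225 to 0.0702 for Fhl5 and -0.229 to 0.0704 for Taf7l, and that between condensing and round stages from -0.0615 to 0.259 for Mybl1, -0.0582 to 0.0791 for Rfx2, -0.07 to 0.131 for Rfx3, -0.0257 to 0.154 for Taf7l, -0.0355 to 0.203 for Tbpl1 and -0.0353 to 0.0438 for Tcfl5. Between stages, Tbpl1 ranged from -0.0171 to 0.0244 into WT round spermatids and Tcfl5 into condensing spermatids from -0.101 to 0.00145 in WT and -0.0624 to 0.00351 in KO.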
